A study of Mus musculus with 36 samples.

Results

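A set of 10 genes that take cells of the limb into the skeletal muscle lineage was followed in mouse forelimbs at stage E12.5. They are Pax3, Pax7 and Lbx1, transcription factors of muscle progenitors; Myf5 and Myod1, which commit cells to the lineage; Msc, a repressor of that step; Myog and Myf6, which act in differentiation; and Mymk and Cdh15, membrane proteins of fusing or contacting muscle cells. The 10 genes were chosen by name, looked up by symbol among the 55052 genes with length-scaled values, and joined by Ensembl identifier to the table of read counts. All 10 were found among its 50833 genes.

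Limb muscle does not arise from the limb bud itself. Its precursors leave the somites, migrate into the bud and settle there while they express Pax3 and Lbx1, and a later population also expresses Pax7. Commitment is marked by the basic helix-loop-helix factors Myf5 and Myod1, and Myog then switches on the genes of the contractile apparatus as cells leave the cell cycle and fuse.

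Using CRISPR/Cas9, the study removed CBS, the sites where CTCF binds, from the Hoxd locus. CTCF is a DNA-binding protein that helps to set the borders of chromatin domains. Wild-type (WT) embryos were compared with 5 alleles that lack 1 to 5 of these sites: Del(CBS1) lacks the first, each of Del(CBS1-2), Del(CBS1-3) and Del(CBS1-4) one more than the allele before it, and Del(CBS1-5) all 5. All 36 libraries carry the strain label B6CBAF1 and come from 12 groups of 3, which are the 6 genotypes in distal forelimb (the future hand) and in proximal forelimb (the future arm). Each library was made from the dissected limb pair of 1 embryo, so a library holds every cell type of that limb segment. The labels do not say whether the alleles were homozygous, or whether littermates served as controls, so an allele and its mouse line cannot be told apart.

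Libraries held 11062069 to 17727891 counts. In WT, the distal libraries were higher than the proximal ones for 12 of 16 distal limb genes and lower for 13 of 14 proximal limb genes in edgeR's quasi-likelihood test, in the direction of the tissue labels. Skeletal muscle structural genes together reached 3058 to 3422 CPM (counts scaled to library size) in proximal WT libraries and at 64.6 to 73.2 CPM in distal ones. None of the labels gives a date or library batch.

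None of the members lies near the deleted sites. Mymk is the single member on chromosome 2, 47.6 Mb from Hoxd13. In mm10 coordinates of the deposited table, Pax3 (ENSMUSG00000004872) spans chr1:78101267-78197134, Msc (ENSMUSG00000025930) chr1:14753346-14755990 and Myog (ENSMUSG00000026459) chr1:134289989-134292548. Pax7 (ENSMUSG00000028736) lies at chr4:139737062-139833528, Myod1 (ENSMUSG00000009471) at chr7:46376474-46379099, Cdh15 (ENSMUSG00000031962) at chr8:122847966-122867397 and Lbx1 (ENSMUSG00000025216) at chr19:45232684-45235812. Mymk (ENSMUSG00000009214) is at chr2:27061636-27072179. Myf5 (ENSMUSG00000000435, chr10:107482908-107486134) and Myf6 (ENSMUSG00000035923, chr10:107492853-107494737) are neighbours, 6.719 kb apart on the same strand. All 10 are annotated as protein coding. Msc overlaps Gm9947 on the opposite strand, so its reads could be shared with that gene model, as the strand setting of the counting is not given in the sources used here.

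RefSeq promoter sequences (GRCm38.p6) were matched for 4 of the 10 members, Pax7, Myf5, Myog and Cdh15. Those of Myf5 and Myog are shown, because these genes stand for commitment and differentiation and kept very different shares of their proximal level in distal tissue. Both windows end before the gene model in the deposited table. Each sequence reads 5′ to 3′ on the strand of its gene, and capitals mark matches to 3 motifs searched on both strands. These are CANNTG, the E box bound by the Myod1 family, TCAGGTT, a form of the MEF3 site, and CTANNNNTAG. The last is looser than the MEF2 site, since it takes any base at each N. Other forms of the MEF2 site were not searched, so unmarked letters can hold one. The Myog window is chr1:134289754-134289988 on the plus strand and the Myf5 window is chr10:107486150-107486384 on the minus strand.
Myog: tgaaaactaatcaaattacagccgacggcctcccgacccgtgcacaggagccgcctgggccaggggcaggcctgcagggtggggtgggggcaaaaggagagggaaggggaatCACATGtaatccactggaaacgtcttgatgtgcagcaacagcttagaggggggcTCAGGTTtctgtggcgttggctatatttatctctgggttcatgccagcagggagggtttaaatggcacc
Myf5: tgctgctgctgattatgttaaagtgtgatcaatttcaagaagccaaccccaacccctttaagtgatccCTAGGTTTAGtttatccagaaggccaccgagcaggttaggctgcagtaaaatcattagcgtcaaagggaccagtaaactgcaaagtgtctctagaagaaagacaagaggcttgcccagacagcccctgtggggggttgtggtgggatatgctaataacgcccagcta

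The Myog window held 1 CANNTG, whose near end is 133 bases before the RefSeq start, and 1 TCAGGTT, 78 bases before it. CANNTG occurred in 64.1% and TCAGGTT in 3.29% of 32841 promoter windows of the same length. The Myf5 window held 1 CTANNNNTAG, 173 bases before the start, a motif found in 3.05% of windows, and no CANNTG. This match, CTAGGTTTAG, has G bases among its middle letters and is not called a MEF2 site here. Of the windows not shown, that of Cdh15 had 3 CANNTG matches, as 10.8% of windows had 3 or more, and that of Pax7 had none of the motifs. The motifs did not overlap each other. These matches describe the letters of the windows and were not tested for binding.

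Within proximal forelimb, the differentiation factor was the most abundant member and the progenitor factors were among the least. Levels between genes were compared on the FPKM scale, which corrects for gene length, over all 18 proximal libraries. Myog had a median of 83.7 FPKM (66.7 to 119), and Myod1 followed at 33.1 FPKM (24.5 to 47.4), below every Myog value. Mymk (median 17.0 FPKM), Cdh15 (16.4) and Msc (15.2) came next, with ranges that overlapped one another and lay below the lowest Myod1 value of 24.5 FPKM except for 2 Mymk values, 25.6 and 25.7 FPKM. Lbx1 (2.95 FPKM), Myf5 (2.60) and Pax7 (2.45) formed a lower set whose ranges overlapped. Pax3 was lower still, at 0.555 FPKM (0.353 to 1.23), and Myf6 was the lowest, at 0.226 FPKM (0.0497 to 0.489), with an overlap between those 2 genes.

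In distal forelimb the order changed. Myog (median 1.86 FPKM over 18 libraries) and Myod1 (1.72) had overlapping ranges, and Mymk (0.719), Cdh15 (0.650) and Lbx1 (0.622) followed. Myf5 (0.325), Msc (0.220) and Pax3 (0.209) came after them, while Pax7 was at 0.0211 FPKM and Myf6 at a median of 0. By these medians Msc stood below Lbx1 and Myf5 in distal tissue, although it was above both in every proximal library. The distal ranges overlapped (Msc 0 to 1.17, Lbx1 0.325 to 1.04, Myf5 0.134 to 0.541 FPKM). Mean Msc was above mean Myf5 in distal Del(CBS1) (0.294 against 0.200 FPKM) and Del(CBS1-2) (0.675 against 0.410), and below it in the other genotypes. In distal Del(CBS1-2) mean Lbx1 was 0.670 FPKM, close to Msc. The plot of levels per library shows both tissues for each gene.

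**Figure D1:**
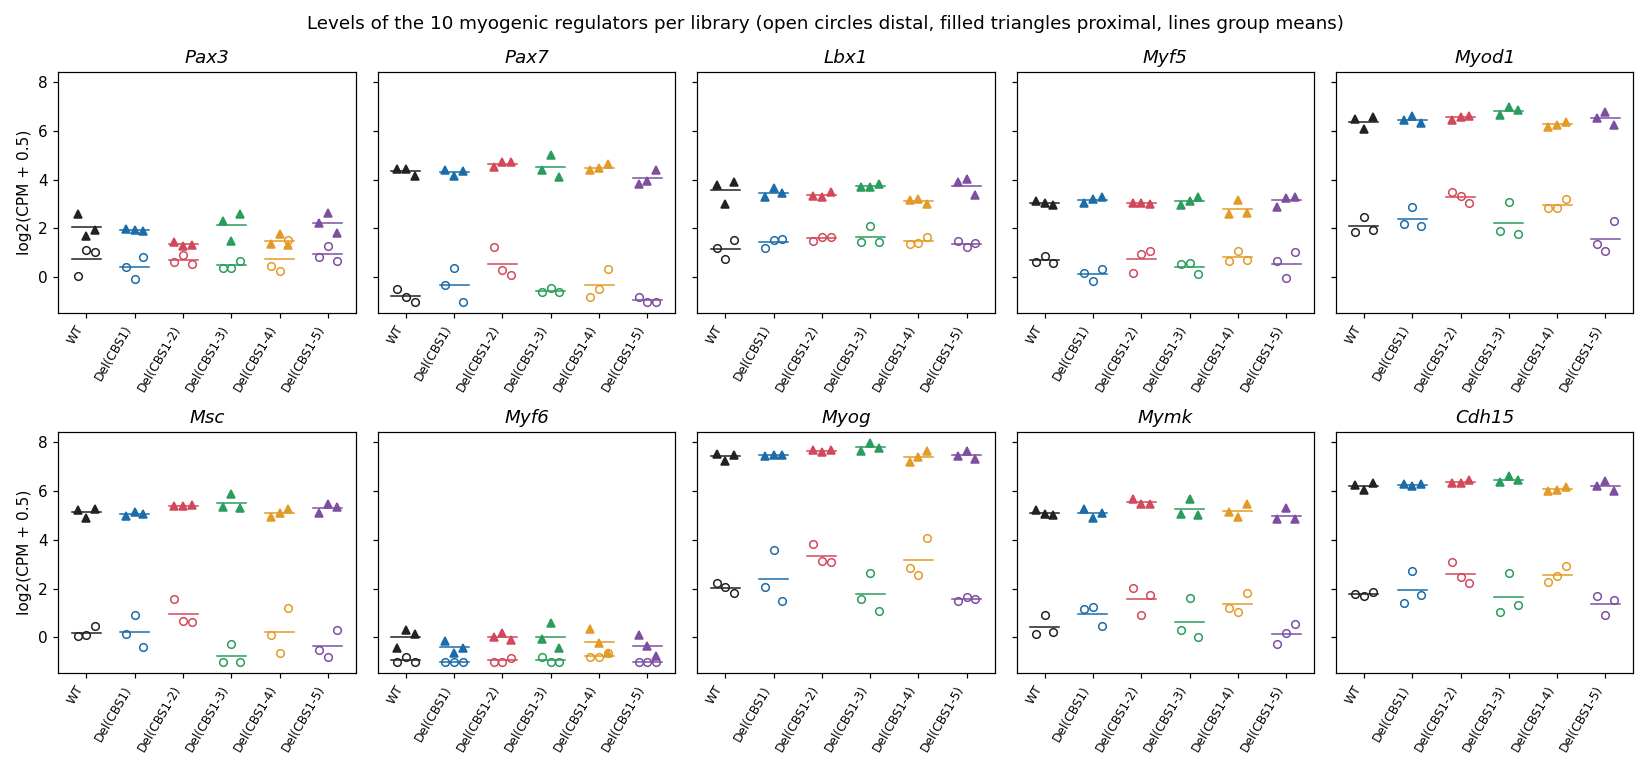
Level of each of the 10 genes in every library, as log2(CPM + 0.5) on the vertical axis, by genotype on the horizontal axis (open circles distal, filled triangles proximal, lines group means, 3 libraries per group). Proximal values lie above distal values of the same genotype for all genes except Pax3 in Del(CBS1-4), and the gap is narrowest for Pax3 among the 9 genes that could be tested.

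Distal and proximal tissue were compared within each genotype to ask how far the muscle lineage was represented in the future hand. Of the 10 members, 9 passed the count filter, and all 9 were lower in distal than in proximal tissue in WT, against 17.1% of all genes tested. The same held in 9 of 9 tested members in Del(CBS1) (background 19.7%), Del(CBS1-2) (25.9%), Del(CBS1-3) (18.3%) and Del(CBS1-5) (21.0%), and in 8 of 9 in Del(CBS1-4) (20.8%). Pax7 (3, 1 and 0 distal WT counts) and Msc (8, 8 and 14) passed the filter through the proximal libraries, where they are high. Such members can hardly be called other than lower, so these counts of members are given as a description. The median log2 fold change of the 9 members was -4.63 in WT and ran from -5.12 in Del(CBS1-5) to -3.59 in Del(CBS1-4), while the median over all genes tested lay between -0.00256 and 0.00516. In whole tissue, fewer cells of a type and less RNA per cell cannot be told apart. Other cell types changed along with the segment. In WT, 8 of 9 tested nerve and Schwann cell genes and 8 of 12 chondrocyte genes were lower distally, and 2 of the latter were higher. Melanoblast genes summed to 44.2 to 49.9 CPM in distal WT against 38.4 to 40.5 CPM in proximal WT, though their mean log2 levels overlapped. Erythroid genes summed to 2693 to 3760 against 2011 to 2610 CPM, and endothelial genes to 474 to 478 against 532 to 557 CPM. Their part in the values of the members was not tested.

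Pax3, the factor of migrating limb muscle progenitors, was at 0.547, 1.68 and 1.55 CPM in distal WT and at 5.51, 2.69 and 3.27 CPM in proximal WT. The WT groups did not overlap, and the distal mean was 32.9% of the proximal one. The log2 fold change was -1.59 ± 0.44 (SE, n = 3 against 3; edgeR adjusted p = 0.0244), and leaving out replicate 1 of distal WT (adjusted p = 0.0575) or of proximal WT (0.0932) ended the call. In Del(CBS1-2) the call was also lost without distal replicate 1, distal replicate 3 or proximal replicate 1. In Del(CBS1-4) Pax3 was not called (-0.83 ± 0.43, edgeR adjusted p = 0.157): distal libraries were at 0.857, 0.706 and 2.37 CPM and proximal ones at 2.06, 2.94 and 1.97 CPM. Distal replicate 3 of this allele lay within the proximal range, and without it the difference was -1.57 (edgeR adjusted p = 0.00896).

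Lbx1, a homeobox gene needed for precursors to reach the limb, was at 1.78, 1.19 and 2.41 CPM in distal WT and at 13.2, 7.51 and 14.6 CPM in proximal WT. Every distal library was below every proximal one, and the distal mean was 15.2% of the proximal mean (log2 fold change -2.70 ± 0.33, edgeR adjusted p = 0.000454). Over the 6 genotypes this share ran from 15.2% in WT to 27.6% in Del(CBS1-4).

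Pax7, the related factor of later progenitors and of satellite cells, was close to undetected in distal tissue. Distal WT libraries had 3, 1 and 0 counts, while proximal WT libraries had 273, 337 and 250. The distal mean of 0.0917 CPM was 0.464% of the proximal mean of 19.8 CPM (log2 fold change -7.67 ± 0.39, edgeR adjusted p = 2.74e-06). In Del(CBS1-5) a single count was found in 3 distal libraries against 633 in the proximal ones, a ratio of 0.145% with an exact 95% interval of 0.00366% to 0.809% that covers counting error only. In WT, Pax3 thus kept the largest and Pax7 the smallest distal share of the 9 tested members.

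Myf5, the earliest of the determination factors in the embryo, was at 1.03, 1.33 and 0.990 CPM in distal WT and at 8.31, 7.76 and 7.28 CPM in proximal WT. The groups were well apart, with a distal mean of 14.3% of the proximal one (log2 fold change -2.80 ± 0.22, edgeR adjusted p = 3.61e-05). Myod1, the other determination factor, was at 3.08, 5.03 and 3.34 CPM in distal WT and at 88.6, 66.7 and 93.1 CPM in proximal WT. Its distal share was 4.61% (log2 fold change -4.45 ± 0.20, edgeR adjusted p = 1.36e-06). In each of the 6 genotypes Myf5 kept a larger distal share than Myod1, from 6.93% against 5.60% in Del(CBS1) to 19.5% against 9.65% in Del(CBS1-4).

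Msc, which encodes musculin, a repressor of the Myod1 family's activity, had 8, 8 and 14 counts in distal WT libraries and 474, 468 and 558 in proximal ones. Its distal mean was 1.89% of the proximal one (log2 fold change -5.69 ± 0.20, edgeR adjusted p = 3.26e-07). In Del(CBS1-3) distal libraries had 0, 4 and 0 counts against 520, 799 and 502 in proximal tissue, the lowest distal share of this gene among the genotypes (0.240%).

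Myog, which drives terminal differentiation, was at 4.24, 3.70 and 3.03 CPM in distal WT and at 184, 149 and 180 CPM in proximal WT. The distal mean was 2.14% of the proximal mean (log2 fold change -5.55 ± 0.14, edgeR adjusted p = 3.46e-08). Myf6, the remaining member of the Myod1 family, fell below the count filter in every tissue comparison. It had 7 counts over the 18 distal libraries and 111 over the 18 proximal ones. Distal groups with 0 counts were set to a floor of 3 counts over the group. At that floor the distal level of Myf6 was 3.85-fold below the proximal one in Del(CBS1) and 4.73-fold below it in Del(CBS1-5). These ratios leave out the counting error of the 11 and 13 proximal counts, so they are not lower bounds.

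Mymk, which encodes the fusion protein myomaker, was at 0.615, 1.4 and 0.680 CPM in distal WT and at 37.0, 32.8 and 32.3 CPM in proximal WT. Distal tissue held 2.64% of the proximal level (log2 fold change -5.25 ± 0.23, edgeR adjusted p = 1.17e-06). Cdh15, the gene of M-cadherin, was at 2.94, 2.73 and 3.16 CPM in distal WT and at 75.6, 64.6 and 78.9 CPM in proximal WT. Its distal share was 4.03% (log2 fold change -4.63 ± 0.12, edgeR adjusted p = 4.85e-08). Neither gene had a distal library that reached any proximal one.

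**Figure D2:**
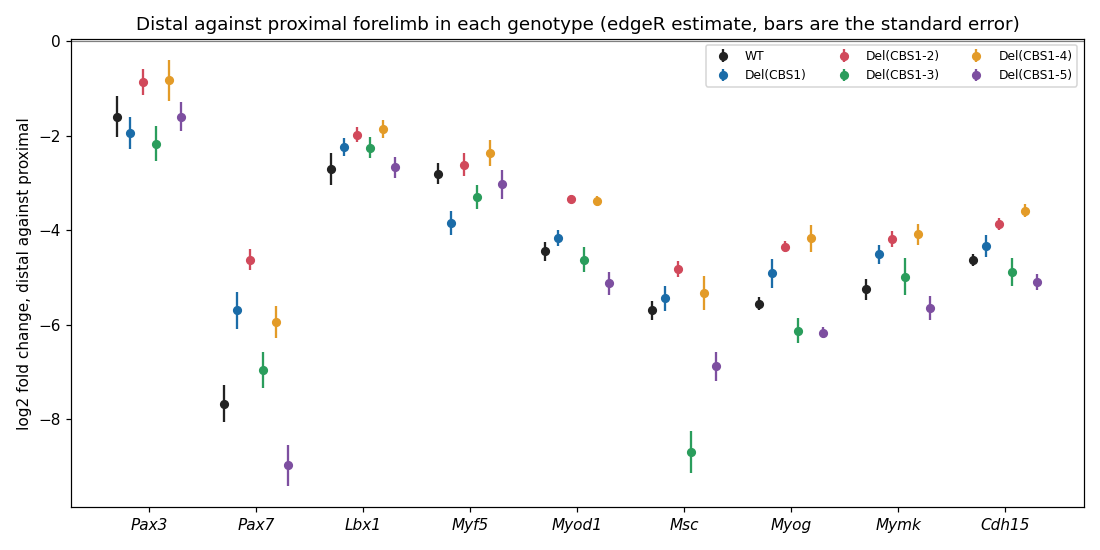
Log2 fold change of distal against proximal tissue (vertical axis) for the 9 tested genes (horizontal axis) in each genotype (colours), as edgeR estimates with standard errors from 3 against 3 libraries. Pax3, Lbx1 and Myf5 lie between -3.84 and -0.83, and the other 6 genes lie between -8.98 and -3.34, where the lowest point, Pax7 in Del(CBS1-5), rests on 1 distal count.

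Because all members were lower distally, their makeup was also described as a ratio of counts within each library. Counts were divided by those of Myod1, with 0.5 added to both, which removes library size. On this log2 scale Pax3 had a median of -2.09 in distal and -4.66 in proximal libraries, and Lbx1 one of -1.13 against -3.06. For both genes, 18 of 18 distal libraries were above all 18 proximal ones. Myf5 was above all proximal libraries in 16 of 18 distal libraries, and the other 2, which were replicate 2 of Del(CBS1) and replicate 1 of Del(CBS1-2), were below all of them.

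Relative to Myod1, 5 other members were lower in distal tissue by their medians. Msc was at a median of -3.10 in distal against -1.26 in proximal libraries, with 18 of 18 distal libraries below all proximal ones. Pax7 (-4.23 against -1.99) and Myog (-0.14 against 1.03) were below all proximal libraries in 17 of 18 distal ones. Mymk was so in 12 and Cdh15 in 9 of 18. Myf6, with 0 to 2 distal counts, had a median of -6.44 in distal against -7.65 in proximal libraries. Its ratio was above all proximal ones in 9 of 18 distal libraries. However, 12 of 18 distal libraries had 0 Myf6 counts, where the ratio is set by the amount added and the Myod1 count. The Myf6 ratios therefore cannot show whether this gene was higher or lower relative to Myod1 in distal tissue. The ratios of all members are given as a description with no test. For Pax7 and Msc the distal values rest on 0 to 35 counts per library.

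**Figure D3:**
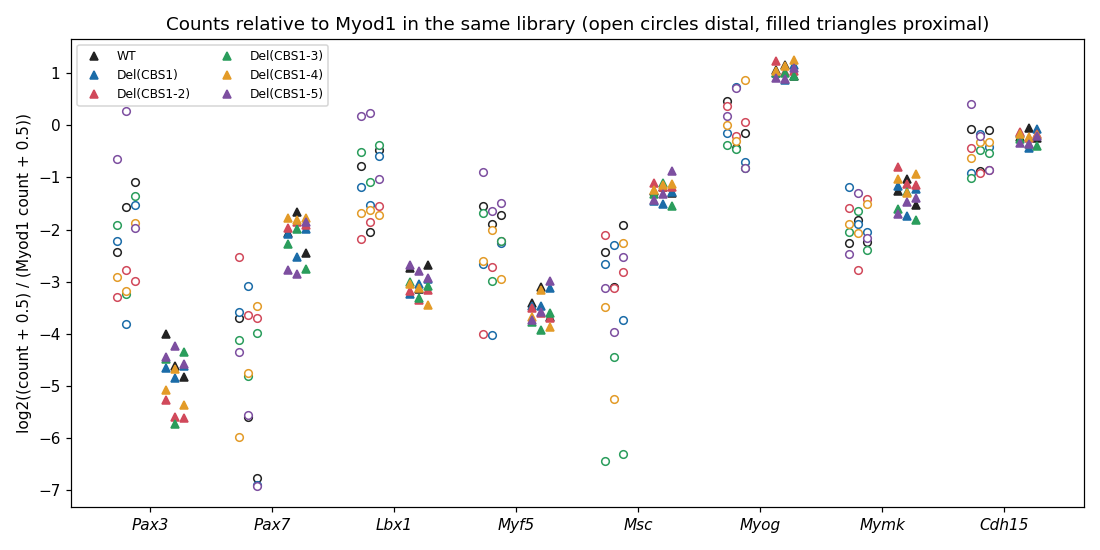
Log2 ratio of each gene's counts to those of Myod1 in the same library (vertical axis; 0.5 added to both counts; open circles distal, filled triangles proximal, 18 libraries each, colours genotypes). Pax3 and Lbx1 are higher in all distal than in all proximal libraries, and Msc is lower in all of them; Myf6 is left out for its low counts.

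The wider pathway followed the same tissue difference to unequal degrees. Among 20 genes of progenitor migration and specification, 14 were lower and 3 higher in distal WT, where 17.1% of all genes tested were lower and 13.6% higher (median log2 fold change -0.94, against 0.00494 over all genes tested). Among those with the smallest p were the homeobox genes Meox2 (-1.63 ± 0.09) and Meox1 (-2.30 ± 0.17) and the chemokine gene Cxcl12 (-1.90 ± 0.12), each with an edgeR adjusted p of 2.29e-05 or less. The 3 higher ones, named after their values were seen, were Dach1 (2.24 ± 0.20), Six4 (0.45 ± 0.10) and Vcam1 (0.28 ± 0.09).

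Of 26 tested genes of commitment, cell cycle exit and fusion, 24 were lower and 0 higher in distal WT (median -1.71). By DESeq2, 24 were called. They were led by Chrng (-5.82 ± 0.15) and Chrna1 (-4.67 ± 0.17), subunits of the muscle acetylcholine receptor, Cdkn1a (-2.63 ± 0.11), an inhibitor of the cell cycle, and Rbm24 (-3.90 ± 0.20), an RNA-binding protein of muscle. All 25 differentiated muscle genes were lower (median -6.01), among them Myh3 (-6.64 ± 0.09), the embryonic myosin heavy chain, and Neb (-5.63 ± 0.08), the gene of nebulin. Genes of these lists that are low distally can pass the filter through proximal libraries alone, so these counts are a description too.

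Inhibitors of myogenesis and Notch signalling genes were called in both directions, more often as lower. Of 22 tested, 10 were lower and 4 higher in distal WT (median -0.09), where 17.1% of all genes tested were lower and 13.6% higher. The lower ones with the smallest p were Twist2 (-1.62 ± 0.09), the Notch target Heyl (-2.16 ± 0.20), Snai1 (-0.52 ± 0.06) and Hes6 (-0.80 ± 0.11). The higher ones, named after their values were seen, were Id1 (0.81 ± 0.11), Id3 (0.63 ± 0.10), Twist1 (0.72 ± 0.12) and the Notch ligand gene Jag1 (0.93 ± 0.16). Msc, the inhibitor among the members, was lower distally, as the muscle genes were. Which cells express the genes of this list was not tested.

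The alleles were then compared with WT in distal tissue, to ask whether the loss of CTCF sites went along with a change in these genes. The 5 comparisons share the same 3 WT libraries. Only Del(CBS1-2) gave calls, with 2 of 9 tested members higher (Pax7 and Myod1), where 4.47% of all genes tested were called higher. Pax7 passed the count filter in large part through this group, so the count of 2 is not weighed against that share.

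Myod1 was at 10.7, 9.58 and 7.69 CPM in distal Del(CBS1-2) and at 3.08, 5.03 and 3.34 CPM in distal WT. All 3 mutant libraries were above all 3 WT ones, with a log2 fold change of 1.27 ± 0.36 (edgeR adjusted p = 0.0335). Pax7 had 26, 13 and 9 counts in the mutant against 3, 1 and 0 in WT, again without overlap (3.39 ± 0.97, edgeR adjusted p = 0.0329). Distal Pax7 was low elsewhere too, with 0 to 12 counts in the other 15 distal libraries, so its passing of the count filter, and with it its place among the 9 tested members, rested in large part on Del(CBS1-2), where it is high. Its call is given as a description of that group. DESeq2 called Myod1 but not Pax7. With each of the 6 libraries left out in turn, 0 to 1 member was called. The Myod1 call held only without WT replicate 2 (1.51, adjusted p = 0.0392), and the Pax7 call held only without WT replicate 1 (0.0419) or Del(CBS1-2) replicate 3 (0.046).

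A further 3 members had an unadjusted p under 0.05 in distal Del(CBS1-2) without being called. Myog was at 13.9, 8.27 and 8.01 CPM against 4.24, 3.70 and 3.03 CPM in WT, with no overlap (1.43 ± 0.51, edgeR adjusted p = 0.0783). Mymk (1.5 ± 0.53, 0.0763) and Cdh15 (0.94 ± 0.42, 0.158) were the others. Over the 9 tested members, Pax7 among them, 8 fold changes were positive, with a median of 1.17 against -0.0037 over all genes tested. These 2 values are given as a description. Pax3, Lbx1 and Myf5 were nearer to 0 than the called members, with Pax3 at -0.18 ± 0.47, Myf5 at 0.14 ± 0.40 and Lbx1 at 0.47 ± 0.27.

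Marker genes of several cell types also differed between these groups. Differentiated muscle genes, none of which was called although 23 of 24 were positive and 14 had an unadjusted p under 0.05 (DESeq2 called 1), summed to 115 to 211 CPM in distal Del(CBS1-2) against 64.6 to 73.2 CPM in WT. Nerve and Schwann cell genes summed to 181 to 196 against 132 to 149 CPM, with 3 of 8 called higher, and chondrocyte genes to 3205 to 3337 against 2195 to 2578 CPM, with 3 of 12 called higher. Erythroid genes summed to 2334 to 2474 against 2693 to 3760 CPM, with 2 of 11 called lower. Epidermal genes summed to 644 to 760 against 528 to 560 CPM, with 3 of 12 called higher, and endothelial genes to 520 to 541 against 474 to 478 CPM, with 0 of 11 called (4 at an unadjusted p under 0.05; 0 by DESeq2). None of the genes of the lists above was at 0 counts in all libraries of either group. Macrophage genes summed to 70.2 to 81.7 against 55.8 to 79.4 CPM and melanoblast genes to 45.3 to 48.0 against 44.2 to 49.9 CPM, with overlap in each. Of the melanoblast genes, Tyr was at 0 counts in all libraries of both groups. A position score, the mean log2 level of proximal limb genes minus that of distal limb genes with no muscle gene in either list, was -2.09 to -1.62 in distal Del(CBS1-2) and -2.37 to -2.12 in WT. The part of these shifts in the values of the members was not tested.

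In the other pathway lists of distal Del(CBS1-2), 2 of 20 migration and specification genes were higher, Eya2 (0.98 ± 0.22) and Gab1 (0.25 ± 0.08), and 2 were lower, Dach1 (-0.43 ± 0.09) and Six4 (-0.36 ± 0.09). Over all genes tested, 4.47% were higher and 5.99% lower, so 2 of 20 in either direction is close to the background. Of 25 tested commitment genes 3 were higher: Nfix (0.75 ± 0.19) and the cell surface receptor genes Boc (0.37 ± 0.11) and Cdon (0.33 ± 0.10). Of 22 tested inhibitor and Notch genes 4 were higher, the Id genes Id1 (0.33 ± 0.08), Id2 (0.25 ± 0.06) and Id3 (0.37 ± 0.06), whose products block basic helix-loop-helix factors, and Jag2 (0.33 ± 0.08), which is also on the distal limb list. These are edgeR calls with adjusted p-values of 0.0451 or less.

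No member was called by edgeR in the other 4 alleles in distal tissue, where few genes were called at all: 0.0325% in Del(CBS1), 0.00651% in Del(CBS1-3), 0.0846% in Del(CBS1-4) and 0.0651% in Del(CBS1-5). Unadjusted p-values under 0.05 were seen for 0, 2, 4 and 0 of 9 members in that order, and DESeq2 called 0 in each. In Del(CBS1-4) the fold changes of 9 of 9 members were positive (median 0.91), with Myog at 6.79, 5.37 and 16.2 CPM above all WT libraries (1.36 ± 0.51, edgeR adjusted p = 0.207). In Del(CBS1-5) 7 of 9 were negative (median -0.50), with Myog at 2.32, 2.62 and 2.49 CPM below all WT libraries (-0.57 ± 0.57, edgeR adjusted p = 0.703). Msc in Del(CBS1-3), with 4 counts in all, was at -2.60 ± 1.14 (edgeR adjusted p = 0.325). Along the series from Del(CBS1) to Del(CBS1-5) the median fold changes were 0.34, 1.17, 0.04, 0.91 and -0.50, with no steady trend.

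**Figure D4:**
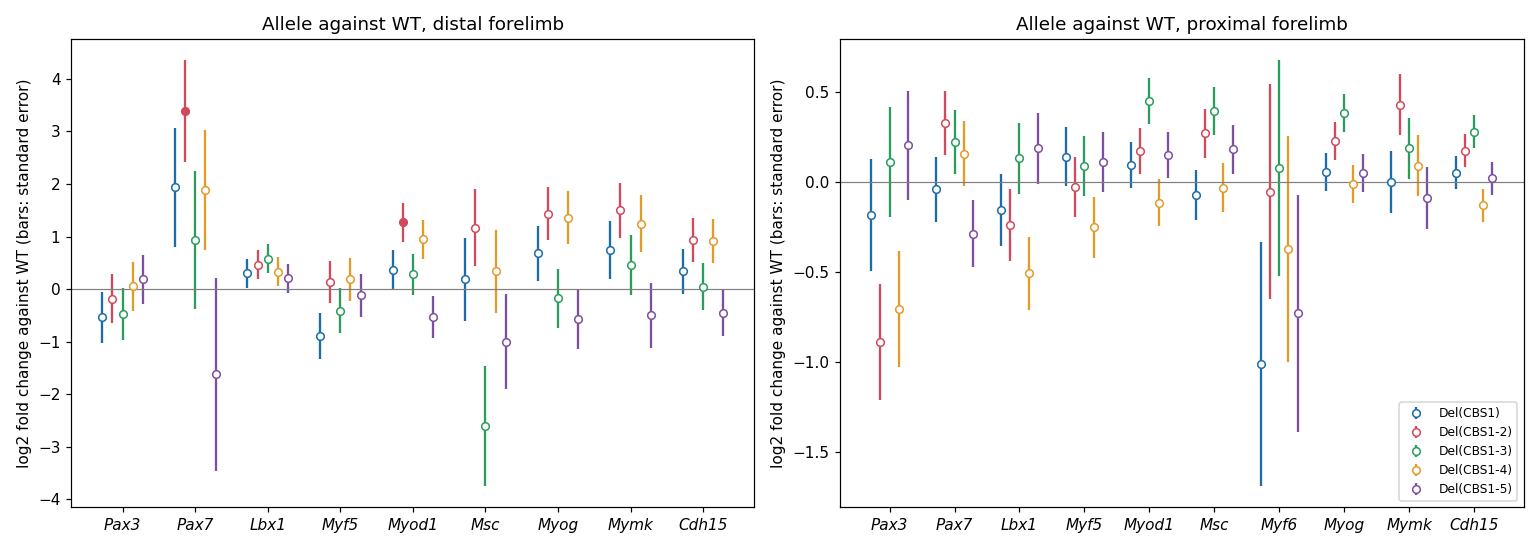
Log2 fold change of each allele against WT (vertical axis) for each gene (horizontal axis) in distal tissue (left) and proximal tissue (right), as edgeR estimates with standard errors from 3 against 3 libraries; filled points passed an adjusted p of 0.05. Only Pax7 and Myod1 in distal Del(CBS1-2) are filled, and the right panel has a narrower axis, from about -1.7 to 0.7.

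In proximal tissue all 10 members were tested, and edgeR called 0 of 10 in each allele, against 0.0443% of all genes in Del(CBS1), 0.721% in Del(CBS1-2), 0.0696% in Del(CBS1-3), 0% in Del(CBS1-4) and 0.0696% in Del(CBS1-5). Unadjusted p-values under 0.05 numbered 0, 3, 4, 2 and 0. DESeq2 called 2 members in Del(CBS1-3) and 0 in the others. These 2 were Myod1, at 99.1, 124 and 114 CPM against 88.6, 66.7 and 93.1 CPM in WT (0.45 ± 0.13, edgeR adjusted p = 0.163), and Myog, at 198, 250 and 219 CPM against 184, 149 and 180 CPM (0.38 ± 0.11, 0.154). For both genes the mutant libraries lay above all WT libraries.

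Pax3 went the other way in proximal Del(CBS1-2), at 2.25, 1.92 and 1.98 CPM against 5.51, 2.69 and 3.27 CPM in WT. The groups did not overlap, but the difference was not called (-0.89 ± 0.32, edgeR adjusted p = 0.14). Mymk was at 50.4, 43.2 and 44.0 CPM in the same mutant libraries against 37.0, 32.8 and 32.3 CPM in WT (0.43 ± 0.17, edgeR adjusted p = 0.164). Lbx1 in Del(CBS1-4), at 8.56, 8.67 and 7.51 CPM against 13.2, 7.51 and 14.6 CPM, was not called with all libraries (-0.51 ± 0.20, edgeR adjusted p = 0.28) and was called without proximal WT replicate 2 (-0.76, 0.0318). In the 3 pathway lists beside differentiated muscle, edgeR called 0 genes in proximal tissue, and of the 25 muscle genes it called Tnnt3 in Del(CBS1-2) (0.83 ± 0.16, adjusted p = 0.0224).

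Whether an allele acted differently in the 2 tissues was tested as an interaction in all 36 libraries. edgeR called 0 of 10 members for each allele, with backgrounds of 0% in Del(CBS1), 0.0491% in Del(CBS1-2), 0.00614% in Del(CBS1-3), 0.0184% in Del(CBS1-4) and 0% in Del(CBS1-5), and DESeq2 also called 0 in each. Unadjusted p-values under 0.05 numbered 1, 6, 1, 5 and 0. The smallest was that of Pax7 in Del(CBS1-2), with a difference of 3.07 ± 0.88 between the distal and the proximal log2 fold change (edgeR adjusted p = 0.156), followed by Myod1 (1.12 ± 0.35, 0.185). The higher distal levels of Myod1 and Pax7 in Del(CBS1-2) were thus not shown to differ from the proximal effect.

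Distal libraries of one genotype could differ among themselves in their Myog level. In distal Del(CBS1) Myog was at 11.5 CPM in replicate 2 against 3.70 and 2.31 CPM in the other libraries, and in distal Del(CBS1-3) replicate 2 was at 5.78 CPM against 2.45 and 1.62 CPM. Over the 18 distal libraries, with the genotypes pooled, the coefficient of variation was 73.8% for Myog, 63.6% for Mymk, 50.2% for Cdh15 and 49.9% for Myod1. It was 22.8% for Lbx1, 38.0% for Myf5 and 42.7% for Pax3, but 93.9% for Msc and 134.6% for Pax7, which had few distal counts. Over the proximal libraries it was 13.7% for Myog and 16.6% for Myod1.

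These distal levels were set against 2 scores of the same libraries, the position score and the mean log2 level of the 25 differentiated muscle genes, for 9 members and thus in 18 relations. Myog followed the muscle score with a Pearson r of 0.96 (permutation p = 1e-05, the smallest that 100000 permutations can give; adjusted p = 4.5e-05) and a Spearman rho of 0.93 (permutation p = 1e-05). It followed the position score with an r of 0.82 (permutation p = 5e-05, adjusted p = 0.000129; rho 0.82, p = 8e-05). Within genotypes, after group means were removed, the r values were 0.95 and 0.66, and without the 2 libraries farthest from the median score they were 0.93 and 0.68. The permutations shuffled all 18 libraries freely across genotypes, so their p-values take no account of a shared genotype. The r values within genotypes were not tested.

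Relations in the same direction were found for 5 other members. Against the muscle score, r was 0.91 for Cdh15, 0.89 for Msc, 0.86 for Myod1, Pax7 and Mymk, each with a permutation adjusted p of 6e-05 or less. Against the position score, r ran from 0.69 for Pax7 to 0.80 for Mymk, with permutation adjusted p-values of 0.00256 or less. For these 5 members Spearman's rho was 0.73 to 0.91 and 0.69 to 0.85 for the 2 scores (permutation adjusted p-values of 0.00297 or less), r within genotypes was 0.75 to 0.91 and 0.52 to 0.77, and r without the 2 farthest libraries was 0.76 to 0.86 and 0.53 to 0.75. For Pax3, Lbx1 and Myf5 no relation passed the test: r lay between -0.05 and 0.36 in their 6 relations, with permutation adjusted p-values of 0.194 or more. Their rho ran from -0.09 to 0.46, the highest being Lbx1 with the muscle score (permutation adjusted p = 0.0778). Without the 2 farthest libraries the r of Pax3 was -0.44 with the muscle score and -0.34 with the position score. So distal libraries high in Myog tended to have a higher position score, that is, a higher level of proximal relative to distal limb genes. The proximal and the distal genes of the score were not related to Myog separately. For Pax3, Lbx1 or Myf5 a relation with the scores was not detected over 18 libraries at 6 to 46 counts per library. The part of tissue makeup in these values was not tested.

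**Figure D5:**
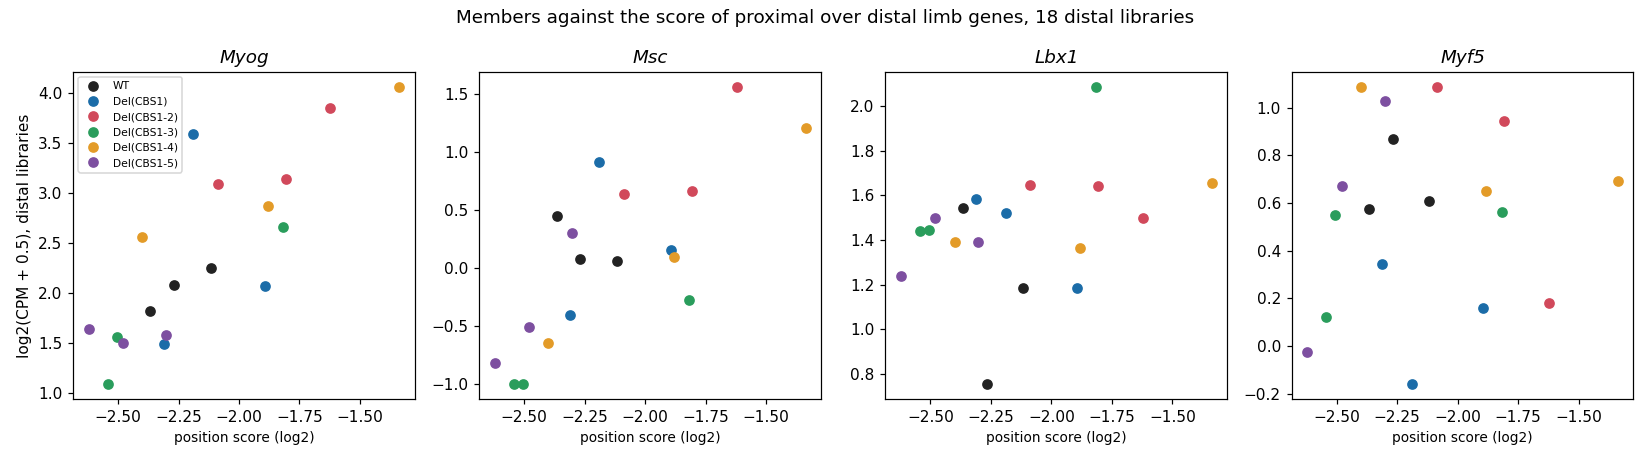
Level of 4 genes in the 18 distal libraries, as log2(CPM + 0.5) on the vertical axis, against the position score on the horizontal axis (mean log2 level of proximal limb genes minus that of distal limb genes; colours genotypes). Myog (r = 0.82) and Msc (r = 0.76) rise with the score, and for Lbx1 (r = 0.33) and Myf5 (r = 0.10) the points show no clear trend.

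Among the members themselves, correlations over the 18 proximal libraries are given as a description, since all values of a library share its depth and genotype. Myog correlated with Cdh15 (r = 0.92), Myod1 (0.88) and Msc (0.84). Pax3 correlated with Lbx1 (0.70), and inversely with Pax7 (-0.69), its closest relative. Lbx1 correlated with Myod1 (0.73) and Cdh15 (0.57) as well, and Pax7 with Mymk (0.69). Distally, Pax3 and Myf5 had an r of -0.14 to 0.30 with every other member listed here except Myf6, while Myog had an r of 0.82 to 0.89 with Myod1, Msc, Mymk, Cdh15 and, at 0.85, Pax7.

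The genes most like a member over the 18 proximal libraries were sought among 14177 genes with a mean of at least 1 CPM. For Myog the closest were Myo5b (r = 0.92), Sytl2 (0.91), Chrna1 (0.90), Atp2a1 (0.88) and Fkbp1a (0.88), and for Myod1 they were Ntn1 (0.90), C1qbp, Crip2, Vgll2 and Ppp1r14b (0.87 to 0.88). For Pax7 they were Cryab (0.93), Iqgap1, Myl4, Ablim3 and Anxa6 (0.91 to 0.92). For Pax3, at 27 to 83 counts per library, they were Ccnj (0.94), Eed, Cxxc1, Dbf4 and Ddx51 (0.88 to 0.92). Chrna1, Vgll2 and Myl4 were on the muscle lists used here, and none of the 5 genes closest to Pax3 was.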

How the data were processed

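RNA was sequenced as single-end reads of 50 nt from strand-specific poly(A) libraries, per the labels' protocols. The authors deposited whole-number counts per gene and FPKM values from Cufflinks, per the file headers. Tools listed by the submitters' processing notes are STAR 2.7.0, cutadapt 1.16, bedtools 2.27.1 and Cufflinks 2.2.1, with the build mm10. How reads were counted is not given there. Replicates of a group differed by more than sampling noise (chi-square per degree of freedom 2.66 to 21.2 over 36 pairs) and were kept as separate samples.

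The test of the counts was edgeR's (4.0.16, under R 4.3.3) quasi-likelihood F test after TMM scaling and filterByExpr, with Benjamini-Hochberg adjustment over all genes tested and calls at an adjusted p under 0.05. Tissues were compared in 1 fit per genotype, alleles with WT in 1 fit for each tissue (18 libraries), and interactions in 1 fit of all 36. CPM use TMM scaling over all libraries. DESeq2 1.42.0, limma 3.58.1 on log2(FPKM + 0.1) or log2(FPKM + 1) for genes with an FPKM of at least 0.5 in 3 libraries, fits without a filter, with a replicate block, and without each library were alternatives. The script was tested on simulated counts. With 11062069 to 17727891 counts a library, 3 counts are the floor used for a count of 0, and intervals cover counting error only.

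Replicate numbers pair the tissues: distal and proximal libraries of the same number deviated together in 18 of 18 pairs (r of 0.167 to 0.533), each best with its own number, and the labels describe limb pairs of individual embryos. Embryo identity is otherwise not given. Between alleles and WT, all 3 pairs were over 0.1 in both tissues only for Del(CBS1-3). Its distal replicate 2 was not best with its own number.

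The members, the gene lists, the tests and the alternatives were chosen with earlier results of these data known. All 10 members are named, and of each pathway list and comparison up to 4 called genes by smallest p, with exceptions stated where they occur. One result that this rule would name is not reported here. The genes most like Pax3, Pax7, Myod1 and Myog are the 5 with the highest Pearson r over proximal libraries, leaving out unnamed gene models.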

Additional observations from a re-analysis of the deposited data

How the results depend on the processing

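The tissue difference of the members kept its direction under all alternatives run, with 8 to 10 of the 10 members called. In the leave-one-out fits 8 to 9 were called in WT, Del(CBS1-2) and Del(CBS1-4), and 9 in the other alleles. The fit with the embryo as a replicate block gave 9, 9, 9, 9, 8 and 9 calls from WT to Del(CBS1-5), the same counts as without it. The 2 calls in distal Del(CBS1-2) were less stable: DESeq2 gave 1, limma 0 on log2(FPKM + 0.1), with or without the filter, and 1 on log2(FPKM + 1), and the leave-one-out fits 0 to 1. Without the count filter 5 were called there, 1 in distal Del(CBS1-3), 4 in distal Del(CBS1-4), 3, 4 and 1 in proximal Del(CBS1-2), Del(CBS1-3) and Del(CBS1-4), and 1, 5, 1 and 4 in the interactions of Del(CBS1) to Del(CBS1-4). That setting also raised the calls over all genes, from 0 to 1606 per allele against WT to 250 to 2151, and DESeq2 gave 19 to 1797; the cause was not tested. DESeq2 called 2 members in proximal Del(CBS1-3). Leaving out libraries gave 0 to 1 call in proximal Del(CBS1-4) and 0 in the other allele and interaction results. The interaction of Pax7 in Del(CBS1-2) turned from 3.07 to -0.16 on log2(FPKM + 1). Its distal means, 0.0109 FPKM in WT and 0.121 FPKM in Del(CBS1-2), are far below the added 1, and its proximal means were 2.29 and 3.05 FPKM. The cause of the turn was not tested.

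For alleles against WT the same replicate number correlated over 0.1 in 3 of 15 distal and 4 of 15 proximal pairs, best with its own number in 4 and 5 of 15, and all 3 of these distal and 3 of the 4 proximal pairs were those of Del(CBS1-3). The replicate block still called 2 members in distal Del(CBS1-2) and 0 in the other allele comparisons, and 0 in the interactions, although over all genes the interaction of Del(CBS1-2) went from 8 to 116 calls. Distal precision is limited by low counts: Pax7 and Msc had 0 to 35 counts per distal library and Myf6 0 to 2.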
